A study of Mus musculus with 12 samples.

Results

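The loss of Myb and the loss of Moz were compared gene by gene in germinal centre B cells of immunised mice, with 8 of the 12 libraries of the series. The 8 were taken by label, as the knockout and control germinal centre pools of both experiments, 2 pools a group, and all 13131 genes that passed the filter on low counts entered the comparison. The filter was run over all 12 libraries, plasmablast pools included. Over the 8 germinal centre libraries alone, 12288 genes passed it. The Myb knockout pools came from Myb fl/fl CD23-cre T/+ mice on day 12 after immunisation and their controls from Myb fl/fl mice with no cre. The Moz knockout pools came from Moz fl/fl AID-cre T/+ mice on day 7 and their controls from AID-cre T/+ mice, so both Moz groups carried the cre. All mice were C57BL/6 and were given NP-KLH, a hapten-carrier antigen, in alum, and polyA RNA of sorted cells, pooled from 2 to 8 animals, went into each library (5, 5, 14 and 11 mice in total for Myb knockout, Myb control, Moz knockout and Moz control). CD23-cre is switched on in mature follicular B cells and AID-cre in activated B cells, so the gene lost, the day, and the cre and its timing all differ together between the experiments. These cannot be told apart in any difference between the Myb and Moz effects. In the Myb experiment the presence of cre cannot be told apart from the loss of Myb either.

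Germinal centres are the sites in lymphoid follicles where B cells divide, mutate their antibody genes and are selected, and which they leave as memory B cells or antibody-secreting plasma cells. Myb encodes c-Myb, a DNA-binding transcription factor best known for keeping blood progenitors immature, and Moz (gene symbol Kat6a) encodes a histone acetyltransferase that works in a complex with BRPF scaffold proteins. Leaving the germinal centre for the plasma cell fate involves silencing of the germinal centre programme around Bcl6 and induction of Prdm1, Irf4 and Xbp1.

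The germinal centre libraries held 8285934 to 24801297 counts, fewest in the 4 Myb pools. Same-numbered knockout and control pools carry the same experiment dates in the labels, and within a group the pools differed by far more than sampling noise (28.2 to 51.6 chi-square units a degree of freedom). Levels below are CPM, the share of a gene in a library's counts after TMM scaling, pool 1 before pool 2. One library went against its label: Myb knockout pool 1, labelled as females, held 67.2 CPM (unscaled) of the Y-linked Ddx3y, against 0.323 in Myb knockout pool 2. Ddx3y was at 17.7 and 0.483 in Myb control, 77.4 and 38.0 in Moz knockout, and 108 and 82.1 in Moz control pools. The sex-dependent Xist (unscaled) was at 297 and 347 in Myb knockout against 812 and 418 in Myb control pools. In the Moz experiment it was at 84.6 and 172 in knockout against 64.4 and 14.6 in control pools. The part of sex in X-linked genes such as Cxcr3 and Tlr7 was not tested. Counts over the whole gene say nothing about the deletions, since no source used here names the floxed exons: Myb had 13.0 and 11.6 CPM in Myb knockout and 14 and 11.5 in control pools, and Kat6a 66.4 and 93.7 CPM in Moz knockout and 82.0 and 73.4 in control pools. Marker levels were summed as unscaled CPM. All 7 germinal centre markers checked were present in every pool (summed 2178 and 2857 CPM in Myb knockout, 2432 and 2835 in Myb control, 1618 and 1679 in Moz knockout, 1970 and 2011 in Moz control pools). Of other cell types, erythroid markers summed to 0.482 to 1.81 and myeloid markers to 5.82 to 45.2, the last highest in both first Myb pools. Plasma cell markers, 6 of 6 present in every pool, summed to 2268 and 2898 CPM in Myb knockout against 1499 and 2207 in Myb control pools, and to 9312 and 10600 in Moz knockout against 7279 and 6996 in Moz control pools. Most of each of these sums was Jchain.

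The effect of each loss was the log2 ratio of knockout over control, tested with edgeR's quasi-likelihood test over all 12 libraries, with Benjamini-Hochberg adjustment over all genes and a limit of 0.05. Without the experiment date in the model, 31 genes were higher (0.236% of the genes tested) and 3 lower after Myb loss, 0.259% in all, and no gene was called after Moz loss (0%), where 315 had an unadjusted p under 0.05 (2.4%). With the date in the model, 266 were higher (2.03%) and 52 lower (0.396%) after Myb loss, 2.42% in all. After Moz loss 35 were higher (0.267%) and 4 lower (0.0305%), 0.297% in all. DESeq2 without the date called 161 genes after Myb loss and 11 after Moz loss. Apart from the dates, the labels say no more of the replicates' independence than that they are separate pools. Without the date these p-values measure the spread between pools of a group, any difference between dates included, over all 6 groups. With the date they measure how far same-date pairs disagree, on 3 residual degrees of freedom. For a single value, 2 pools against 2 allow no exact permutation p under 0.333. The Myb effects had wider tails but not a wider middle. Over the 10942 genes with a mean of at least 1 CPM in the 8 pools, the SD of the log2 effect was 0.416 for Myb loss and 0.284 for Moz loss. The interquartile range was 0.257 for Myb loss and 0.28 for Moz loss. A 2-fold change was passed by 395 genes after Myb loss (350 higher, 45 lower), against 96 after Moz loss (80 higher, 16 lower).

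Across these 10942 genes the Myb and Moz effects correlated weakly, with a Pearson r of 0.264 and a Spearman rho of 0.071. The value depended on the floor on the level: r was 0.189 over all 13131 genes, 0.250 at 5 CPM and 0.171 at 20 CPM, where rho was -0.0372. Genes are not independent replicates, and no test was made of r. Leaving out immunoglobulin genes gave an r of 0.210 at 1 CPM and 0.0875 at 20 CPM. In the whole set of 13131 genes, 51.1% had effects of the same sign. Agreement lay in the genes that rose. Of the 31 genes higher after Myb loss, 28 also had a positive Moz effect (90.3%), and with the date in the model 225 of 266 did (84.6%), as 30 of the 35 genes higher after Moz loss had a positive Myb effect (85.7%). Of the 52 genes lower after Myb loss with the date in the model, 25 had a negative Moz effect (48.1%), close to the 51.3% of all genes that shared a sign in that fit.

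**Figure D1:**
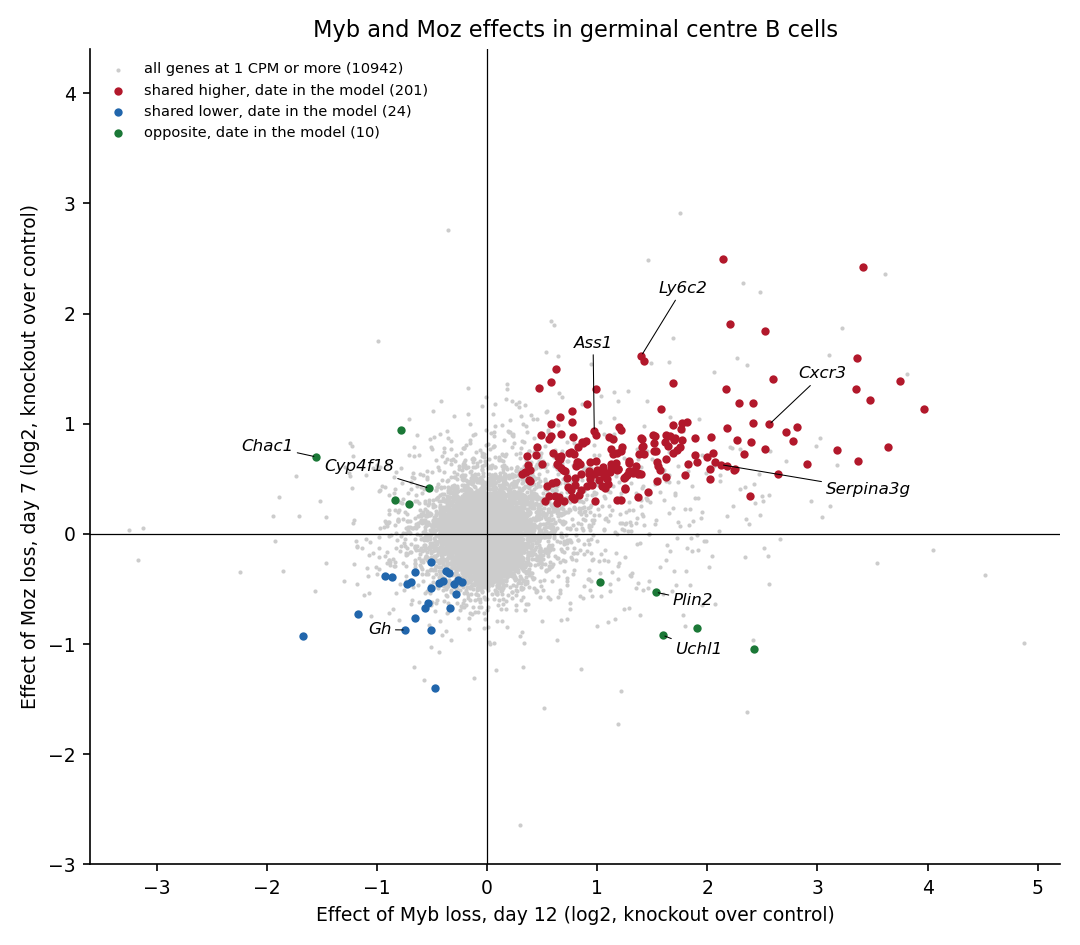
Effect of Myb loss (x axis) against effect of Moz loss (y axis) for each gene, as log2 of knockout over control without the date in the model; grey points are the 10942 genes with a mean of at least 1 CPM, and coloured points are genes shared or opposite with the date in the model. The 201 shared genes that rose fill the upper right, with larger Myb than Moz effects for 168 of them, while the 24 that fell have smaller median effects (-0.50 and -0.45 with the date).

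The relation differed between pools of the same experiment. The log2 effects of the 2 same-date Myb pairs correlated at 0.592 with each other, whereas those of the 2 Moz pairs correlated at 0.038 (Pearson r, over 10942 genes). The first Myb pair correlated at 0.102 with the first and at 0.300 with the second Moz pair, and without immunoglobulin genes at 0.107 and 0.245. For the second Myb pair the order turned with the measure: its r was 0.083 with the first and 0.176 with the second Moz pair, but 0.115 and 0.0553 without immunoglobulin genes, and its Spearman rho over all genes was 0.0999 and -0.081. The r between the experiments was 0.0632 without Myb knockout pool 1, the library at odds with its label, 0.122 without Moz knockout pool 2, 0.139 without Myb control pool 2 and 0.347 without Myb knockout pool 2.

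**Figure D2:**
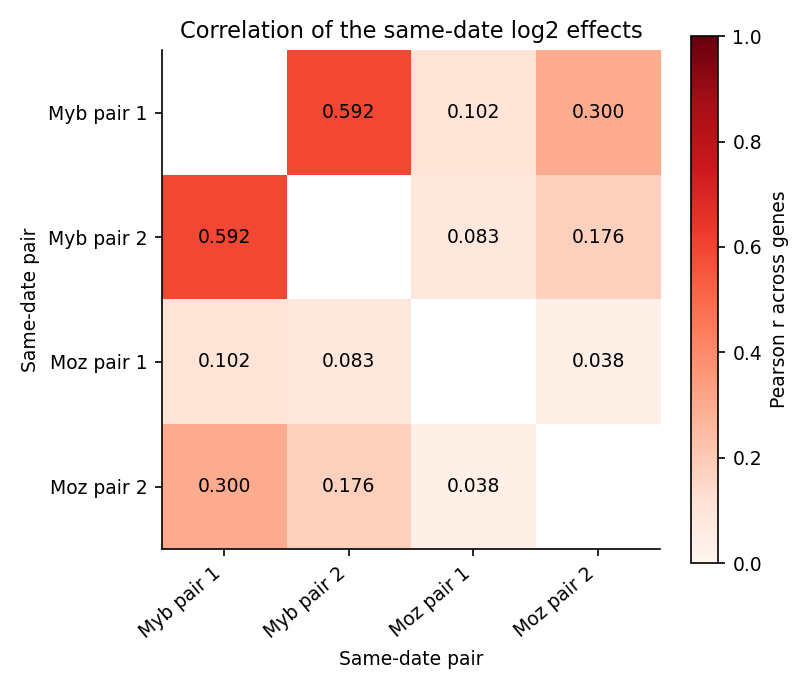
Pearson correlation across 10942 genes of the log2 effects (knockout over control) of the 4 same-date pairs of pools, each effect from 1 knockout and 1 control pool. The Myb pairs correlate at 0.592, the Moz pairs at 0.038, and the pairs of different experiments at 0.083 to 0.300.

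A gene was counted as shared when the mean of its Myb and Moz effects passed the adjusted limit, each effect had an unadjusted p under 0.05, and both had the same sign. The mean of the effects passed for 25 genes without the date (0.19%) and for 339 with it (2.58%). Without the date 18 genes were shared, all of them higher (0.137% of genes). With the date 201 were shared and higher (1.53%) and 24 shared and lower (0.183%), and 17 of the 18 were among the 201. Of the 201, 198 were higher in all 4 same-date pairs (8.94% of all genes were), and the 24 that fell were lower in all 4 (7.84% of all genes were), as their choice by both effects favours. In that fit 15 genes passed the adjusted limit and rose in each experiment singly, 5.64% of those that rose after Myb loss and 42.9% of those that rose after Moz loss. The shared genes that rose had a median log2 effect of 1.21 after Myb loss and 0.67 after Moz loss, against medians of 0.00 and -0.01 over all genes, which their selection by effect sets in part. The number rests on single libraries: without the date it was 0 when Myb control pool 2 or Moz control pool 2 was left out, 1 without Moz knockout pool 2, 5 without Myb control pool 1, 7 without Myb knockout pool 1 and 27 without Myb knockout pool 2.

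Among receptors, Cxcr3 and Csf2rb were shared without the date. Cxcr3 (chrX:101731535-101734147, GRCm38), the receptor for the interferon-induced chemokines CXCL9 and CXCL10, had 16.7 and 21.8 CPM in Myb knockout pools against 2.58 and 3.95 in control pools. Moz knockout pools had 7.85 and 12.2, against 5.87 and 4.24 in Moz control pools. Both knockout pools lay above both control pools in each experiment. The rule for naming the largest shared genes required pools without overlap, here and below. Over all genes, 3.63% lay higher and 1.69% lower in this way in both experiments. The effect was 2.56 (SE 0.35) after Myb loss and 1.00 (SE 0.31) after Moz loss, and the mean of the effects passed (edgeR adjusted p = 0.0205). Csf2rb (chr15:78325800-78351001), the common beta chain of the GM-CSF, IL-3 and IL-5 receptors, had 17.2 and 11.4 CPM in Myb knockout against 5.31 and 2.98 in Myb control pools. In the Moz experiment, knockout pools had 11.9 and 17.7, against 7.83 and 6.97 in controls. Its log2 effects were 1.77 and 1.00 (SE 0.31 and 0.28, edgeR adjusted p of the mean = 0.029), and with the date in the model each effect passed singly (edgeR adjusted p = 0.000889 and 0.0408). Reads of Csf2rb and its close copy Csf2rb2 may be split by the counting, so this value is uncertain.

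Other receptors passed only with the date in the model. Il2rb, the beta chain of the IL-2 and IL-15 receptors, had 17.4 and 14.2 CPM in Myb knockout against 4.47 and 6.13 in control pools. Its levels were 6.21 and 8.67 CPM in Moz knockout against 4.32 and 2.51 in Moz control pools. Tlr7, an endosomal sensor of single-stranded RNA, had 16.1 and 7.74 CPM in Myb knockout against 6.22 and 2.74 in control pools. After Moz loss it had 8.58 and 12.1 CPM, against 6.75 and 4.63 in Moz controls. Fcrl5, an Fc receptor-like protein of B cells, had 13.5 and 6.16 CPM in Myb knockout against 3.21 and 2.82 in control pools. Moz knockout pools had 7.72 and 5.33, against 4.62 and 2.51 in Moz control pools. In all 3 genes the lower knockout pool lay above the higher control pool in both experiments, which the naming rule required. The mean log2 effects of Il2rb, Tlr7 and Fcrl5 were 1.37, 1.15 and 1.28 (edgeR adjusted p = 0.00914, 0.00301 and 0.00225). Il2rb, Cxcr3 and Tbx21 are also expressed by T and NK cells, and the summed markers of both were higher in knockout pools, although not every marker was. The 6 T cell markers (unscaled, as above) summed to 15.4 and 10.5 CPM in Myb knockout against 9.97 and 9.17 in Myb control pools, and to 11.3 and 12 in Moz knockout against 10.7 and 7.98 in Moz control pools. The 4 NK cell markers summed to 5.62 and 4.31 CPM in Myb knockout against 2.15 and 2.66 in Myb control pools, and to 4.04 and 8.48 in Moz knockout against 3.59 and 3.47 in Moz control pools, while the defining NK receptor gene Ncr1 was at 0.067 to 0.453 CPM in all 8 pools. After Moz loss the sums were carried by Prf1, the perforin gene (3.43 and 6.56 CPM in knockout against 2.41 and 1.53 in control pools), and Lat, a T cell receptor adaptor (7.21 and 6.51 against 4.50 and 4.36). Of the 6 genes tested in a list of NK and plasmacytoid dendritic cell markers, 5 had a positive Myb effect and 1 a positive Moz effect (medians 0.98 and -0.15, without the date). The part of these cells in the results was not tested. Il9r, an interleukin receptor gene of memory B cells, and Selplg, the selectin ligand PSGL-1, were shared as well (mean log2 effects 0.82 and 0.82, edgeR adjusted p = 0.002 and 0.00135).

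Among transcription factors, Bhlha15 (chr5:144190286-144194441), which encodes the secretory cell factor MIST1, had 5.33 and 6.44 CPM in Myb knockout against 1.61 and 1.69 in control pools, and 19.1 and 27.5 in Moz knockout against 13.6 and 16.4 in control pools, without overlap in either (log2 1.83, SE 0.27, and 0.64, SE 0.21; edgeR adjusted p of the mean = 0.0205). Irf4, which is needed for plasma cell formation, had 62.6 and 51.7 CPM in Myb knockout against 37.4 and 34.4 in control pools. In the Moz experiment, knockout pools had 81.4 and 116, against 61.4 and 59.5 in controls. Its effects were nearly equal, 0.67 (SE 0.15) and 0.69 (SE 0.14) with the date in the model (edgeR adjusted p of the mean = 0.00445, and 0.244 without the date). Prdm1, which encodes Blimp-1, the repressor that drives plasma cell differentiation, was not shared by the same rule: it rose after Myb loss, with 21.8 and 14.9 CPM against 3.21 and 4.03 in controls (log2 2.34, SE 0.35, edgeR adjusted p = 0.0248), while Moz knockout pools had 11.9 and 20.8 CPM against 13.4 and 11.1 in controls (log2 0.42, SE 0.31, edgeR adjusted p = 1). The difference of its effects did not pass either (log2 1.94, edgeR adjusted p = 0.166 with the date). Bhlhe41, a transcriptional repressor with an E-box binding domain, and its relative Bhlhe40 had mean log2 effects of 0.92 and 0.81 (edgeR adjusted p = 0.0166 and 0.00557 with the date).

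Among the remaining shared genes, Ly6c2, a GPI-linked surface protein of plasma cells and other leukocytes, had the lowest edgeR adjusted p of Moz loss among the genes named here (0.000537 with the date). It had 2.32 and 4.11 CPM in Myb knockout against 1.05 and 1.37 in control pools. Its levels were 56.9 and 79.0 CPM in Moz knockout against 17.8 and 26.4 in Moz control pools. The relative rise was similar (log2 1.38, SE 0.22, and 1.63, SE 0.13), at levels far lower in the day 12 Myb pools, and Ly6c2 reads may be shared with its copy Ly6c1. Mpeg1, which encodes perforin-2, a pore-forming protein also of macrophages, had 56.8 and 55.0 CPM in Myb knockout against 27.5 and 20.5 in control pools. After Moz loss it had 34.9 and 46.3 CPM, against 23.0 and 19.3 in Moz controls. The myeloid marker sums did not separate the groups (45.2 and 5.82 CPM in Myb knockout against 30.6 and 6.40 in Myb control pools, and 16.8 and 9.58 in Moz knockout against 8.78 and 20 in Moz control pools). A longer myeloid list had 11 genes tested. With the date none was called after Myb loss (2.42% of all genes were) and 1 after Moz loss (0.297%). It was Cd68, a lysosomal protein of macrophages, with 10.8 and 9.71 CPM in Moz knockout against 5.87 and 4.90 in Moz control pools (0.93, edgeR adjusted p = 0.0422), and its part was not tested. Ass1, which encodes argininosuccinate synthase of arginine synthesis, had effects of 0.98 and 0.92 that passed in each experiment (edgeR adjusted p = 0.0266 and 0.0471). Tmem176a passed in each as well, with effects of 1.09 and 0.87 (edgeR adjusted p = 0.0288 and 0.027). Serpina3g, an intracellular serine protease inhibitor, H2-Q7, a nonclassical MHC class I gene, and Glipr1 were shared without the date, with Myb effects of 2.13, 1.80 and 1.16 and Moz effects of 0.63, 0.54 and 0.60 (edgeR adjusted p of the mean 0.0205, 0.0262 and 0.0391). Serpina3g and H2-Q7 belong to clusters of near-identical genes, so their counts are uncertain.

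**Figure D3:**
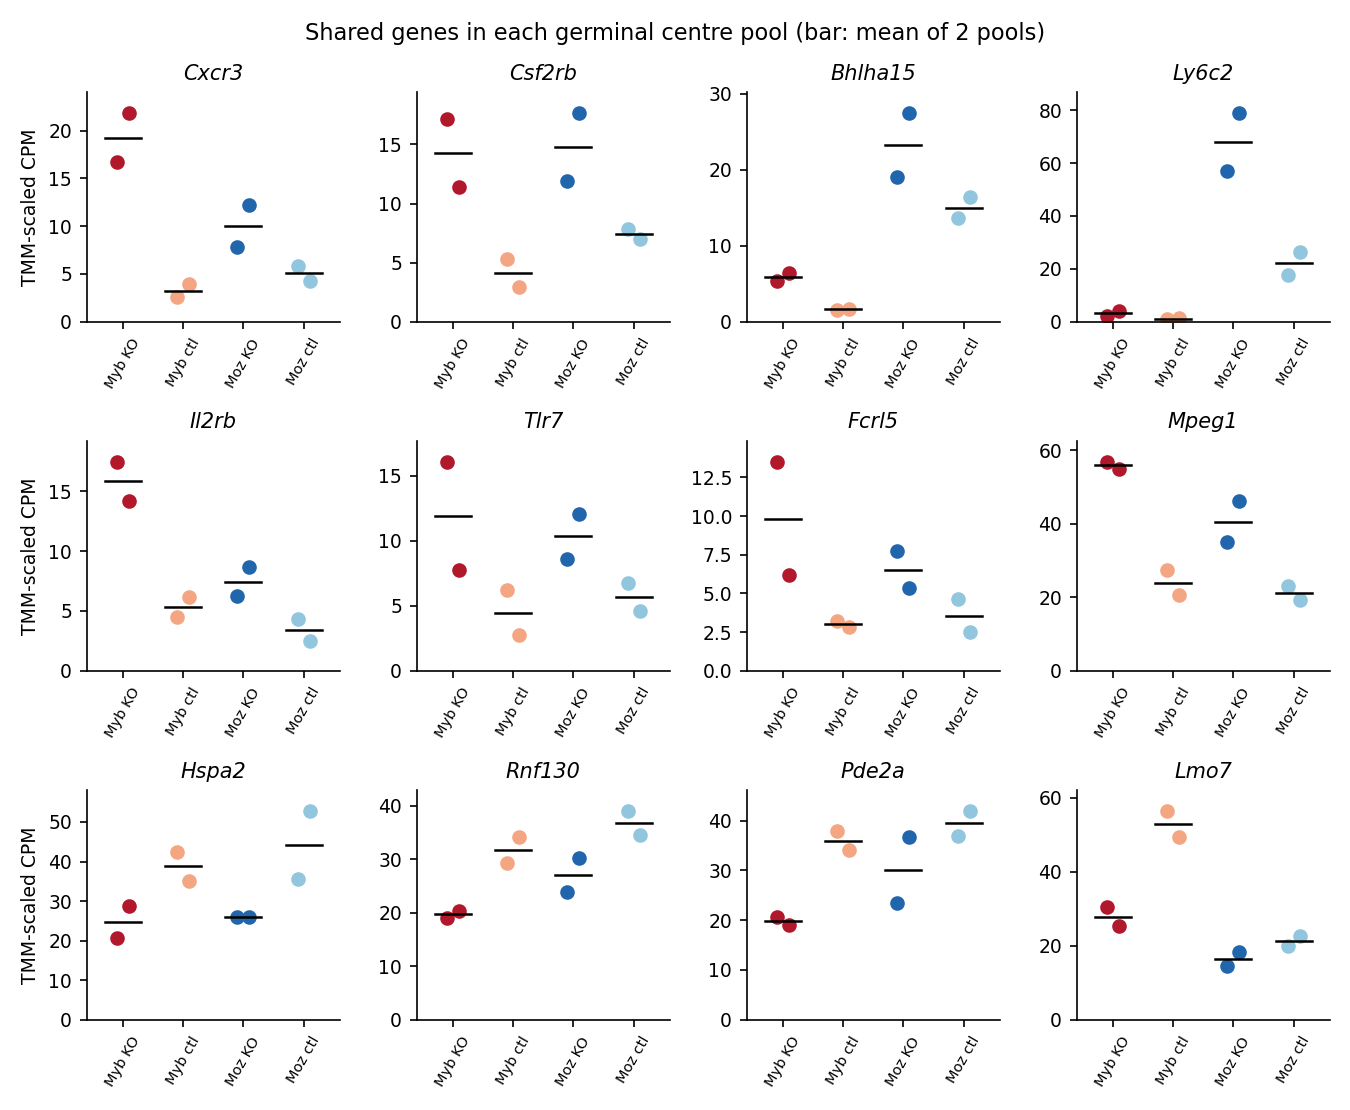
Level of 12 shared genes in each of the 8 germinal centre pools (y axes, TMM-scaled CPM from 0; each point 1 pool, each bar the mean of 2 pools), knockout left of control. In all 12 genes both knockout pools lie on the same side of both control pools in the Myb and in the Moz experiment: the first 8 genes are higher in knockout pools, and Hspa2, Rnf130, Pde2a and Lmo7 are lower. The rule for naming the genes required this. Over all genes, 3.63% lay higher and 1.69% lower without overlap in both experiments.

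Promoter sequences are shown for shared genes to set the rise beside the DNA motif of the deleted factor. Of the 14 genes named as the largest shared rises in either fit, 10 had a promoter in the RefSeq table (GRCm38.p6, 300 bases from 250 before to 50 after the start), and 3 of the 10 held a Myb recognition element, read on both strands as a pyrimidine followed by AACGG or AACTG. Over all genes with a promoter, 7632 of 27025 held it (28.2%), as did 2 of 6 of the genes named as the largest shared falls and 0 of 5 of those named as the largest opposite effects. The 3 that held it were Ly6c2 (chr15:75111888-75112187, minus strand), Fcrl5 (chr3:87435532-87435831, plus strand) and Bhlhe41 (chr6:145865371-145865670, minus strand); Cxcr3 (chrX:101734098-101734397, minus strand) held none. Each is written 5′ to 3′ with the element in capitals:
Ly6c2: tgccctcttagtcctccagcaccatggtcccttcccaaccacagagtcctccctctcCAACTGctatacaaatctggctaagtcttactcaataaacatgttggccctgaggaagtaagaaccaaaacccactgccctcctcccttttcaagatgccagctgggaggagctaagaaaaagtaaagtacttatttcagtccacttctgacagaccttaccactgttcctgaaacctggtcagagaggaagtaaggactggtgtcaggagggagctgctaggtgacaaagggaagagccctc
Fcrl5: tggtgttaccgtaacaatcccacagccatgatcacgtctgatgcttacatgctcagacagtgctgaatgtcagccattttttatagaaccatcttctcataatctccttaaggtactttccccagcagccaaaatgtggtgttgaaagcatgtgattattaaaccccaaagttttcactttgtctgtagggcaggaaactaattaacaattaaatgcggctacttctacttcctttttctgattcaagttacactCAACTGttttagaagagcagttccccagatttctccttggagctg
Bhlhe41: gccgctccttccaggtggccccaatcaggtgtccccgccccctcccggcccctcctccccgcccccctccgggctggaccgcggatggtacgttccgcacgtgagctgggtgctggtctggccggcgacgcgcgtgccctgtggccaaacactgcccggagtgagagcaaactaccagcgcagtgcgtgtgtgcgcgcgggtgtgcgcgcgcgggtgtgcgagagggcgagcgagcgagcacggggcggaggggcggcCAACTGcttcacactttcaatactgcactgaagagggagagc
Cxcr3: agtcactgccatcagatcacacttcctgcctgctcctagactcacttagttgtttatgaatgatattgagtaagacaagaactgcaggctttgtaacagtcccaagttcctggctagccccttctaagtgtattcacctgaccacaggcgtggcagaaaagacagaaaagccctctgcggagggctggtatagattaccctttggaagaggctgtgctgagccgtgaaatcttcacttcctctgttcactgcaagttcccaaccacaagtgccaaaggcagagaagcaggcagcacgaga
A match is a description of these letters only, and its frequency here was near that of all promoters.

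Most of the shared genes that rose were higher in plasmablasts than in germinal centre cells. Of the 201, 180 had a higher mean in the 4 plasmablast pools of the series than in the 8 germinal centre pools (89.6%, against 44.9% of all genes tested), and none of the 24 that fell did. Of these plasmablast pools, labelled day 5, 2 were Myb control and 2 Myb knockout, so this is no comparison with control plasmablasts alone. The filter on low counts used all 12 libraries, so genes that passed it through plasmablasts may be among those counted. Their part was not tested. Immunoglobulin genes made up 33 of the 201 (16.4%, against 1.90% of all genes), and of the other 168, 147 were higher in plasmablasts (87.5%). Immunoglobulin transcripts took 2.89 ± 0.186% of counts in Myb knockout against 1.70 ± 0.155% in Myb control pools, and 8.96 ± 0.274% in Moz knockout against 6.54 ± 0.686% in Moz control pools (SD, n = 2 pools each). The summed plasma cell markers given above moved the same way in both experiments, but Jchain made up most of each sum. Jchain (unscaled) had 1819 and 2420 CPM in Myb knockout against 1250 and 1895 in Myb control pools, which overlap. In the Moz experiment it had 8641 and 9710 in knockout against 6672 and 6347 in control pools. Of the other markers, Tnfrsf17 did not rise after Myb loss (1.00 and 0.539 against 1.02 and 1.33 in controls). The Moz knockout and control pools of Prdm1, Xbp1, Sdc1 and Tnfrsf17 overlapped. Only Jchain and Irf4 stayed apart in the Moz experiment. More antibody-secreting cells in the sorted fraction and more such RNA per germinal centre cell cannot be told apart in bulk libraries, and their part in these results was not tested.

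By gene list, with the date in the model, 11 of 25 plasma cell genes rose after Myb loss (2.03% of all genes did), 1 (Ly6c2) after Moz loss (0.267%), and 9 were shared (1.53%; Derl3, Sdc1, Irf4, Ly6c2, Prg2, Tent5c, Bhlha15, Creb3l2 and Cd9); none fell. Without the date 4 rose after Myb loss, none after Moz loss, and 1 was shared. The list's median log2 effect with the date was 0.55 after Myb loss and 0.37 after Moz loss. Of 20 genes of the unfolded protein response, which expands the endoplasmic reticulum for secretion, 4 rose after Myb loss (2.03% of all genes did) and 3 were shared (1.53%), with medians of 0.34 and 0.25; without the date none was called or shared. The chaperone gene Hsp90b1 had 552 and 503 CPM in Myb knockout against 243 and 203 in control pools. Moz knockout pools had 1383 and 2698, against 1115 and 1763 in Moz control pools. The Moz pools of Hsp90b1 overlap between the groups, and its Moz effect with the date was 0.46 (SE 0.18; edgeR adjusted p of the mean = 0.00479 with the date and 0.348 without). Creld2 and Manf, both endoplasmic reticulum stress genes, rose after Myb loss (1.08 and 0.66, edgeR adjusted p = 0.00416 and 0.0343) and had Moz effects of 0.32 and 0.24 that did not pass.

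Of the 222 immunoglobulin variable segments, with the date in the model, 33 rose and 2 fell after Myb loss (2.03% and 0.396% of all genes did), 12 rose after Moz loss (0.267%) and 26 were shared (1.53%). Without the date 7 rose after Myb loss, none after Moz loss, and 4 were shared. Their median effect with the date was 1.03 after Myb loss and 0.49 after Moz loss. The Moz value rested on 1 date: the median was -0.06 in the first Moz pair and 0.98 in the second, against 0.97 and 1.06 in the Myb pairs. Segments are near-identical copies of each other and mark expanded clones of a pool, so single segments are uncertain. Among constant genes, Ighg2c, the IgG2c heavy chain, had 494 and 528 CPM in Myb knockout against 82.8 and 128 in control pools, and 561 and 936 in Moz knockout against 458 and 369.6 in control pools (mean log2 effect 1.56, edgeR adjusted p = 0.00204 with the date). Igkc, the kappa constant gene, rose after Myb loss with the date in the model (1.14, edgeR adjusted p = 0.0159), and its Moz effect was 0.27 (edgeR adjusted p = 0.694).

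Most interferon-response genes had positive effects. Of 27 tested, 26 had a positive Myb effect and 23 a positive Moz effect, and 22 had the same sign in both (81.5%), with medians of 0.85 and 0.26 with the date. In that fit 6 rose after Myb loss (2.03% of all genes did), none passed after Moz loss, and 6 were shared (1.53% of all genes were); without the date none was called or shared. The shared ones included Zbp1, a sensor of Z-form nucleic acid, Bst2 (tetherin) and Ifih1, the RNA sensor MDA5. Zbp1 had 24.5 and 25.1 CPM in Myb knockout against 11.9 and 13.3 in control pools. In the Moz experiment, knockout pools had 22 and 23.9, against 18.7 and 18.6 in controls. Both groups stayed apart in each experiment, and the effects were 0.98 (SE 0.12) and 0.30 (SE 0.11), with an edgeR adjusted p of the mean of 0.00177. Lgals3bp, a secreted glycoprotein, had the largest mean effect of the 5 interferon genes named here (2.19, SE 0.28, edgeR adjusted p = 0.00198), with 4.58 and 3.08 CPM in Myb knockout against 1.12 and 0.161 in control pools. Its levels were 2.67 and 5.86 CPM in Moz knockout against 1.25 and 1.14 in Moz control pools. Gbp7, a guanylate-binding protein, had a mean effect of 1.24 (edgeR adjusted p = 0.00848). Its Myb pools overlapped, with 4.64 and 1.44 CPM in knockout against 1.68 and 0.161 in control pools. At such low levels the sizes of both genes' effects are uncertain, and the Myb effect of Lgals3bp was 1.93 and 3.55 in the first and second pair. The medians of the list were 0.60 and 1.07 in the Myb pairs and 0.23 and 0.33 in the Moz pairs. No gene of this list was called for the difference of the effects in either fit.

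The genes around T-bet, the type 1 lymphocyte transcription factor, did not all behave alike. Of 19 tested, with the date in the model 8 rose after Myb loss (1 without the date) and none passed after Moz loss. Over all genes, 2.03% and 0.267% rose in that fit. The medians of the list were 0.56 and 0.15. Shared with the date were 3 (Cxcr3, Ighg2c and Fcrl5), against 1.53% of all genes shared and higher. The difference was called for 2 (Tbx21 and Irf1), against 0.183% of all genes called with a larger Myb effect. Tbx21 (chr11:97098007-97115331), which encodes T-bet itself, had 20.1 and 13.5 CPM in Myb knockout against 3.91 and 3.22 in control pools. After Moz loss it had 5.56 and 3.15 CPM, against 5.06 and 2.23 in Moz controls. The Moz groups overlapped, and the Myb effect exceeded the Moz effect by 1.92 on the log2 scale (SE 0.28, edgeR adjusted p = 0.0205 with the date and 1 without). Irf1, an interferon-induced transcription factor, had 83.8 and 56.9 CPM in Myb knockout against 30.2 and 20.6 in control pools, and 37.2 and 29.5 in Moz knockout against 41.8 and 25.0 in control pools (difference 1.43, SE 0.18, edgeR adjusted p = 0.00822 with the date and 1 without).

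Genes that fell in both experiments were few, and their median change was small. The 24 shared with the date in the model had median log2 effects of -0.50 after Myb loss and -0.45 after Moz loss, and none was shared without the date. Their largest falls were -1.66 after Myb loss and -1.40 after Moz loss. Hspa2, an HSP70 family chaperone, had 20.7 and 28.7 CPM in Myb knockout against 42.5 and 35.1 in control pools, and 26.0 and 26.1 in Moz knockout against 35.7 and 52.8 in control pools (mean effect -0.70, SE 0.13, edgeR adjusted p = 0.0158). Mprip, a myosin phosphatase interactor, had 155 and 135 CPM in Myb knockout against 245 and 168 in control pools, and 148 and 128 in Moz knockout against 183 and 204 in control pools, with log2 effects of -0.49 and -0.49. The cyclic nucleotide phosphodiesterase gene Pde2a had 20.6 and 19.0 CPM in Myb knockout against 37.9 and 34.1 in control pools. Moz knockout pools had 23.4 and 36.7, against 37.0 and 42.0 in Moz control pools. Adhfe1, an iron-containing alcohol dehydrogenase, had effects of -0.47 after Myb loss and -1.40 after Moz loss, of which the second passed singly (edgeR adjusted p = 0.333 and 0.0158). The other named genes that fell were Gh (growth hormone), Lgr5 (an R-spondin receptor), Rnf130 (a RING finger protein), Csrp2 (a LIM domain protein), Slc41a2 (a magnesium transporter) and Lmo7, with mean effects of -0.83, -0.69, -0.57, -0.59, -0.42 and -0.66 (edgeR adjusted p from 0.00195 for Lmo7 to 0.0458 for Gh, with the date).

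Genes of germinal centre identity leaned down in both experiments by small amounts. Of 20, 15 had a negative Myb effect and all 20 a negative Moz effect, with medians of -0.22 and -0.20 without the date, and the medians were negative in each of the 4 same-date pairs. In the first and second Moz pair alone, 2 and 5 of the 20 had a positive effect. No member passed in either experiment singly. With the date 3 were called lower for the mean of the effects (0.404% of all genes were). Of these Gcsam, a germinal centre signalling adaptor, was shared (0.183% of all genes were shared and lower). Bcl6, the master repressor of the germinal centre state, had 105 and 108 CPM in Myb knockout against 139 and 127 in control pools. In the Moz experiment, knockout pools had 67.9 and 122, against 103 and 114 in controls. Only the Myb groups of Bcl6 stayed apart, and neither effect passed (-0.32 and -0.24, edgeR adjusted p = 0.475 and 0.619). The dark zone chemokine receptor Cxcr4 had effects of -0.05 and -0.14 that did not pass (edgeR adjusted p = 0.948 and 0.688, with the date). Myc, a driver of cell growth, had effects of 0.07 and -0.08 (edgeR adjusted p = 0.958 and 0.9), and the survival gene Bcl2 of 0.35 and 0.47 (edgeR adjusted p = 0.555 and 0.293).

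A gene was counted as opposite when the difference of its effects passed the adjusted limit, each effect had an unadjusted p under 0.05, and the signs differed. None qualified without the date, where 12 genes had an unadjusted p under 0.05 in both with a higher Myb and a lower Moz level (0.0914%) and 4 the other way round (0.0305%). With the date 5 were higher after Myb loss and lower after Moz loss (0.0381% of genes), and 5 were the reverse (0.0381%). Uchl1 (chr5:66676121-66687234), a ubiquitin hydrolase of germinal centre B cells, had 6.67 and 7.46 CPM in Myb knockout against 2.17 and 2.50 in control pools. Its levels were 3.67 and 4.96 CPM in Moz knockout against 6.88 and 9.50 in Moz control pools. Knockout pools were the higher ones in the Myb experiment and the lower ones in the Moz experiment, without overlap (log2 1.60, SE 0.24, and -0.92, SE 0.19, with an edgeR adjusted p of the difference of 0.00822 with the date, 0.265 without). The rule for naming the largest opposite genes required pools without overlap, here and below. Over all genes, 1.56% lay so with Myb higher and Moz lower, and 1.55% the other way round. Plin2, which coats lipid droplets, had 9.68 and 9.31 CPM in Myb knockout against 3.00 and 3.55 in control pools. After Moz loss it had 3.15 and 3.67 CPM, against 4.32 and 5.55 in Moz controls. Blvrb, which encodes biliverdin reductase B, had 257 and 330.3 CPM in Myb knockout against 132 and 156 in control pools. Moz knockout pools had 141 and 116, against 154 and 193 in Moz control pools. Both showed the Uchl1 pattern without overlap (edgeR adjusted p of the difference = 0.0127 and 0.0205 with the date).

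In the reverse direction, Cyp4f18, a cytochrome P450 that inactivates leukotriene B4, had 27.7 and 30.7 CPM in Myb knockout against 38.8 and 45.4 in control pools. In the Moz experiment, knockout pools had 55.0 and 62.8, against 42.0 and 46.3 in controls. Rhof, a small GTPase of filopodia, had 40.9 and 47.0 CPM in Myb knockout against 67.8 and 76.3 in control pools. Its levels were 66.9 and 69.1 CPM in Moz knockout against 54.4 and 58.2 in Moz control pools. Both were lower in Myb knockout and higher in Moz knockout pools, without overlap (differences -0.94 and -0.99, edgeR adjusted p = 0.0287 and 0.0359 with the date). Lcp2, which encodes the signalling adaptor SLP-76, and Chac1, a glutathione-degrading enzyme of the stress response, were opposite in the same sense. Their differences were -1.13 and -2.26 (edgeR adjusted p = 0.0165 and 0.0383), Chac1 at no more than 2.90 CPM in any germinal centre pool. Only Lcp2 among these 4 had overlapping pools, in the Moz experiment. The remaining opposite genes were Smoc1, Ighv1-36 and Ighv14-3, which fell outside the rule for named genes and are named after their values were seen.

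The difference of the effects passed with the date in the model for 24 genes with a larger Myb effect (0.183% of genes) and 7 with a smaller one (0.0533%), 0.236% in all. Without the date edgeR called none (0%), with 386 genes at an unadjusted p under 0.05 (2.94%), and DESeq2 called 18. The named genes with larger Myb effects outside the opposite ones rose after Myb loss in that fit, and none of them passed after Moz loss. Chst1, a carbohydrate sulfotransferase, had 76.5 and 59.1 CPM in Myb knockout against 8.24 and 9.35 in control pools, and 13.8 and 22.9 in Moz knockout against 16.7 and 13.2 in control pools (difference 2.66, SE 0.34, edgeR adjusted p = 0.0269). Cd9, a tetraspanin of plasma cells, had 16.3 and 19.6 CPM in Myb knockout against 3.91 and 2.90 in control pools. After Moz loss it had 10.8 and 11.5 CPM, against 8.30 and 9.25 in Moz controls. Cd9 was both shared and called for the difference, with effects of 2.38 and 0.35 (edgeR adjusted p of the difference = 0.00822). Of the 225 shared genes 8 were (3.56%), among the named ones also Serpina3g, H2-Q7, Prg2 and Tns3. Prg2, which encodes a granule protein, and Tns3, a tensin of focal adhesions, had differences of 2.21 and 2.16 (edgeR adjusted p = 0.0287 and 0.0127). Rbm47, an RNA-binding protein, and Gstt1, a glutathione transferase, had differences of 2.24 and 1.72 (edgeR adjusted p = 0.0269 and 0.0262). Cadm1, an adhesion molecule, had 8.23 and 4.18 CPM in Myb knockout pools and at most 0.607 CPM in each of the other 6 germinal centre pools (difference 4.22, edgeR adjusted p = 0.00822).

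**Figure D4:**
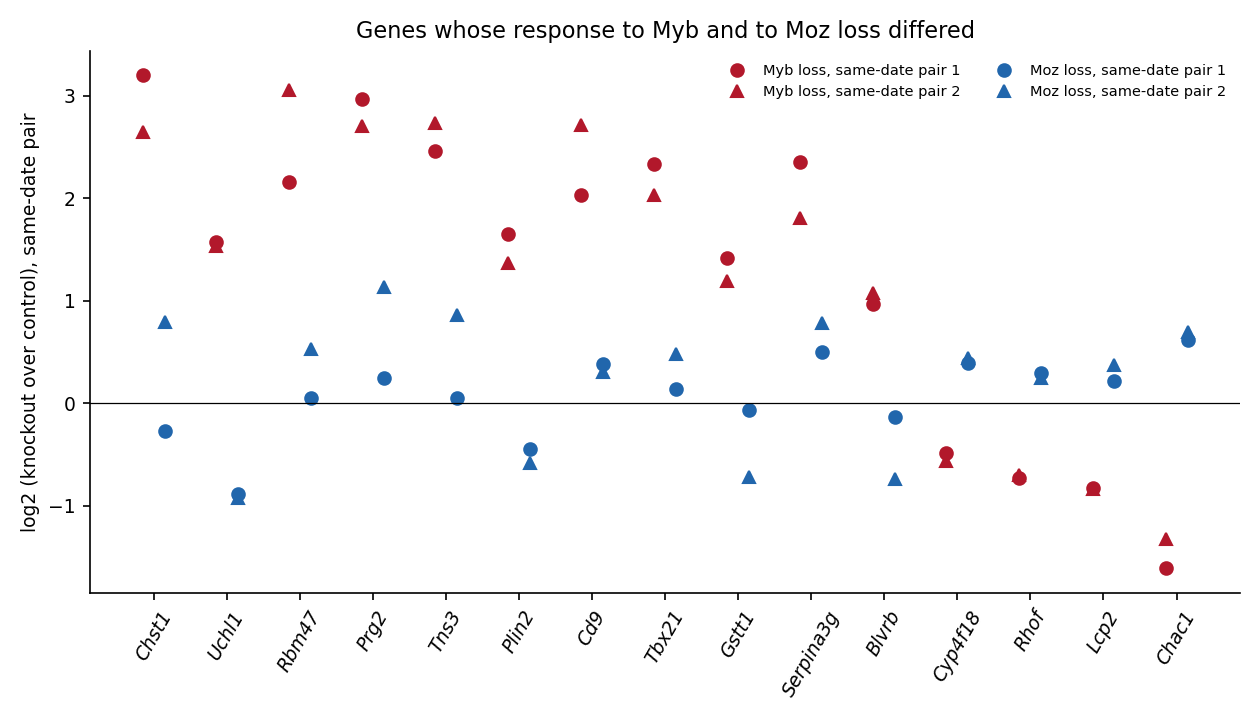
Log2 effect (knockout over control, y axis) in each same-date pair of pools for 15 genes called for the difference of the effects with the date in the model; red, Myb loss; blue, Moz loss; circles, first pair; triangles, second pair. Both Myb pairs lie above both Moz pairs for the 11 genes from Chst1 to Blvrb and below them for Cyp4f18, Rhof, Lcp2 and Chac1. The choice of the genes by this difference in the same pools favours such a separation.

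Among the 7 genes with a smaller Myb effect, the 2 outside the opposite genes were identifiers with no matched symbol, 100861531 and 19791, named after their values were seen. Identifier 100861531 took 0.538 and 0.461% of counts in Myb knockout pools, 4.51 and 3.71% in Myb control pools, and 0.392 to 0.448% in the 4 Moz pools. Identifier 19791 took 0.0474 and 0.0449% in Myb knockout pools, 0.44 and 0.387% in Myb control pools, and 0.0382 to 0.0422% in the 4 Moz pools, so that both were about as low in Myb knockout as in Moz pools and high in the Myb controls alone. No other gene had a larger Moz than Myb effect that passed. Itgb7, the integrin beta 7 chain of gut-homing lymphocytes, came closest: it had 30.8 and 16.8 CPM in Myb knockout against 29.4 and 21.9 in control pools. Moz knockout pools had 55.7 and 64.5, against 30.9 and 33.4 in Moz control pools. It rose after Moz loss with the date in the model (0.90, SE 0.13, edgeR adjusted p = 0.0169), its Myb effect was -0.14, and the difference of -1.04 missed the limit (edgeR adjusted p = 0.0504). Nfam1, an activating receptor with an ITAM motif, had 5.57 and 4.25 CPM in Myb knockout against 6.85 and 5.80 in control pools, and 14.5 and 17.3 in Moz knockout against 8.30 and 8.33 in control pools (Moz effect 0.93, edgeR adjusted p = 0.0408; difference -1.30, edgeR adjusted p = 0.0647). Slc2a6, a hexose transporter, Aldoc, a glycolytic aldolase, and Stac2 had differences of -1.17, -1.38 and -1.05 that did not pass (edgeR adjusted p from 0.0504 to 0.0657). Fcer2a, which encodes CD23 and whose promoter drives the cre of the Myb experiment, had 147 and 97.6 CPM in Myb knockout against 210.1 and 215 in control pools. In the Moz experiment, knockout pools had 261 and 308, against 259 and 233 in controls. It fell after Myb loss with the date in the model (-0.83, edgeR adjusted p = 0.0251), and the difference did not pass (-1.04, edgeR adjusted p = 0.115).

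The replication and mitosis lists had medians of opposite sign in the experiments, with no member called. Of 20 DNA replication genes, 18 had a positive Myb effect and none a positive Moz effect, with medians of 0.08 and -0.17 without the date, as for the other medians here. Of 20 dark zone and mitosis genes, 13 had a positive Myb effect and none a positive Moz effect, with medians of 0.04 and -0.12. The Moz medians were negative in both pairs (-0.09 and -0.31 for replication, -0.01 and -0.23 for mitosis), while the Myb medians were -0.01 and 0.13, and -0.04 and 0.11. Members were not unanimous in single pairs. In the first and second Moz pair, 5 and 2 replication genes and 9 and 2 mitosis genes had positive effects. In the Myb pairs 9 and 19, and 7 and 15, did. The 81 ribosomal protein genes had medians of -0.03 after Myb loss and -0.24 after Moz loss, and the Moz value was 0.15 in the first pair and -0.65 in the second, so it has no stable direction; scaling by total count turned the Myb median to 0.06. The 20 memory B cell genes had medians of 0.24 and 0.50, positive in both Moz pairs (0.34 and 0.58) but 0.51 and -0.16 in the Myb pairs. The 20 light zone genes had medians of -0.03 and 0.00. With the date, Bhlhe40 and Ccnd2, a cyclin of the G1 phase, rose after Myb loss (2.03% of all genes did). Cd86, a costimulatory ligand for T cells, fell (0.396% of all genes did). Their effects were 1.06, 0.80 and -0.56 (edgeR adjusted p = 0.0123, 0.0266 and 0.0309). Ccnd2 was shared at nearly equal size, with 0.77 after Moz loss. Bhlhe40 was shared as well (1.53% of all genes were shared and higher), and 1 other light zone gene was shared and lower (0.183%).

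**Figure D5:**
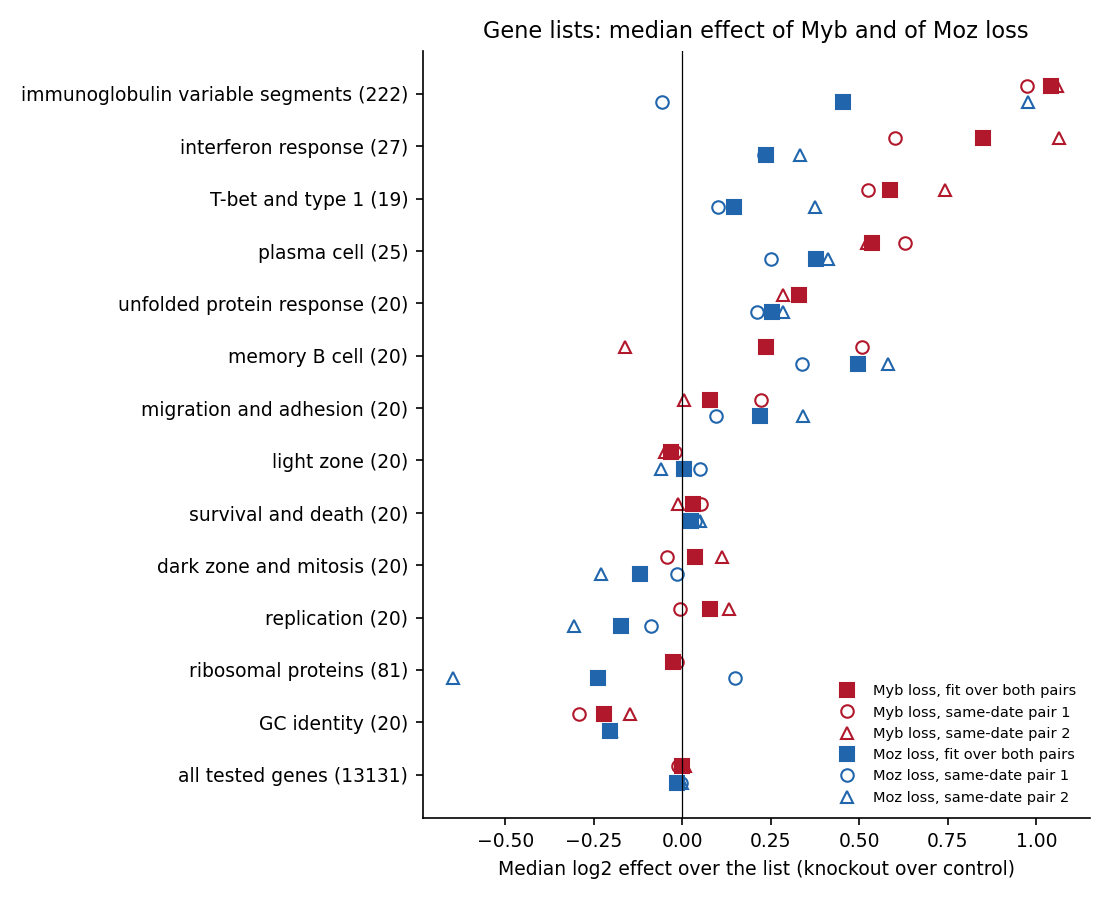
Median log2 effect (knockout over control, x axis) of Myb loss (red) and Moz loss (blue) for each gene list, with the number of genes tested in brackets; squares are the fit over both pairs without the date, open circles the first and open triangles the second same-date pair. The secretory and interferon lists lie right of 0 for both losses, germinal centre identity left of 0 for both, and the Moz values of immunoglobulin variable segments (-0.06 and 0.98) and ribosomal proteins (0.15 and -0.65) differ between the pairs.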

How the data were processed

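Gene counts of 12 libraries (8 germinal centre, 4 plasmablast) were analysed as the authors deposited them, 1 column of whole-number counts a library. Per the submitters' processing notes, featureCounts made the counts and the build was mm10. No source used here names the aligner, the trimming or the strand setting, so reads of near-identical or overlapping genes may be split or pooled. Of 27179 gene identifiers, 25275 matched a symbol in the RefSeq table of GRCm38.p6 and 1904 did not.

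Genes with low counts were removed with edgeR's filterByExpr over all 12 libraries (minimum count 10, minimum total 15), which left 13131. Counts were scaled by TMM, and edgeR 4.0.16 in R 4.3.3 fitted a robust quasi-likelihood model with 6 group means over all 12 libraries, from which the Myb effect, the Moz effect, their difference and their mean were tested with Benjamini-Hochberg adjustment over all 13131 genes. The standard error of a log2 effect is its size divided by the square root of F. A second fit added the experiment date as a replicate block, which left 3 residual degrees of freedom in place of 6. The labels give the same experiment dates to same-numbered knockout and control pools, so the numbers pair the samples, and the deviations of paired pools from their group means correlated at 0.744 in the Myb and 0.332 in the Moz experiment. Effects of single pairs used a prior count of 2. DESeq2 1.42.0, limma 3.58.1 (voom), other scalings and filters, and fits without single pools or pairs were run as alternatives. The fits were tested on simulated counts with known folds.

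Named genes were those with the largest effects in each class (up to 10 a class, at least 4 CPM over the 8 germinal centre pools, pools not overlapping), up to 5 called members of each list, Myb, Kat6a and 10 genes of interest; immunoglobulin segments and Y-linked genes were left out. A few genes that the rule names are not reported here. The members and lists were chosen with earlier results of these data known. Promoters are RefSeq sequences of GRCm38.p6.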

Additional observations from a re-analysis of the deposited data

Results flagged for a closer look

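For 18 of the genes that the naming rule gives, the effects of Myb and Moz loss differed by edgeR's quasi-likelihood test of the difference itself with the date in the model, and for none without it (0 of 13131 genes, 386 at an unadjusted p under 0.05). The values are Myb minus Moz log2 effects with the date. The Myb effect was the larger for Cadm1 (4.22), Chst1 (2.66), Uchl1 (2.52), Rbm47 (2.24), Prg2 (2.21), Tns3 (2.16), Plin2 (2.07), Cd9 (2.03), Tbx21 (1.92), Gstt1 (1.72), Serpina3g (1.46), Blvrb (1.45), Irf1 (1.43) and H2-Q7 (1.26). It was the smaller for Chac1 (-2.26), Lcp2 (-1.13), Rhof (-0.99) and Cyp4f18 (-0.94). Smoc1, Ighv1-36, Ighv14-3 and the unnamed identifiers described above, which the rule does not give, also passed this test. Loss of Myb or Moz, day 12 or 7, and CD23-cre or AID-cre cannot be told apart in these differences.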

How the results depend on the processing

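Counts of calls depend on how the pools are modelled. Genes called after Myb loss, after Moz loss, for the difference, for the mean of the effects, shared and opposite numbered 34, 0, 0, 25, 18 and 0 without the date. In the same order they numbered 318, 39, 31, 339, 225 and 10 with the replicate block (the date); 320, 55, 105, 330, 164 and 26 with no filter on low counts; and 161, 11, 18, 169, 86 and 0 with DESeq2. They were 12, 0, 2, 9, 4 and 0 with the 8 germinal centre libraries alone, and 175, 1, 8, 191, 133 and 4 when these were fitted with the block. The voom fit of limma gave 10, 0, 0, 9, 6 and 0, and 22 genes were called after Myb loss with immunoglobulin genes left out. Total count and RLE scaling stayed within 1.5 times of each count.

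Leaving out 1 pool at a time without the date gave 0 to 39 genes after Myb loss (0 without either Myb control pool, 3 without Myb knockout pool 1, 17 and 20 without Moz knockout pools 2 and 1), 0 to 3 after Moz loss, 0 for the difference, 0 to 44 for the mean, 0 to 27 shared, 0 opposite and an r of 0.0632 to 0.347. Spearman's rho was 0.071. With the block and without the first Myb pair the counts were 49, 23, 5, 107, 85 and 2, and without the second 77, 25, 8, 161, 123 and 1. Without the first Moz pair they were 1053, 2856, 2059, 2256, 642 and 406, and without the second 1057, 207, 370, 801, 361 and 129; in these fits, chosen after seeing the data, the lone pair is assumed to vary like the other groups. The cause of these changes was not tested.

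Directions turned round in 31 values, each of an effect that was not called without the date. Total count scaling gave Myb effects of 0.0312 for Myb and 0.0382 for Cxcr4. With the block, Myb had a Myb effect of 0.0152, Cxcr4 0.0014 and Bcl2 -0.11 without the first Myb pair, and Myc -0.0179 without the second; the Moz effect of Bcl6 was 0.11 without the first Moz pair, and those of Kat6a, Prdm1 and Myc were -0.30, -0.16 and 0.30 without the second. Among fits without 1 pool, Myb effects ran from -0.20 to 0.10 for Myb, -0.46 to 0.15 for Kat6a, -0.33 to 0.19 for Cxcr4, -0.0539 to 0.19 for Myc, -0.91 to 1.22 for Bcl2 and -3.07 to 5.16 for Hspa1b, and Moz effects from -0.19 to 0.32 for Myb, -0.20 to 0.27 for Kat6a, -0.23 to 0.95 for Tbx21, -0.29 to 0.0196 for Cxcr4, -0.0147 to 0.77 for Prdm1, -0.65 to 0.17 for Bcl6 and -0.44 to 0.30 for Myc. With 2 pools a group, and 8285934 counts in the shallowest pool, small changes of low genes were not detectable.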
